A study of Mus musculus with 32 samples.

Results

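The cranial mesenchyme genes are 9 genes, namely Twist1, Twist2, Prrx1, Prrx2, Alx1, Alx4, Foxc1, Pdgfra and Col1a1, that mark the loose connective tissue packed around the embryonic brain. They were matched by Ensembl identifier, and 9 of 9 were found among the 48576 identifiers of the deposited tables. They were read as a measure of how much mesenchyme came along with dissected brain tissue. RNA was sequenced from the forebrain (Fb) and midbrain (Mb) of E9.5 mouse embryos of the B6C3F1 strain in 32 libraries. The 16 libraries of a tissue comprised 6 of WT, 4 of TKO_Ex, 3 of DKO_Ex and 3 of DKO_CD. WT embryos came from WT matings and mutants from matings of mice heterozygous at all 3 loci. TKO_Ex embryos lacked Cdh6, Cdh8 and Cdh11, which encode type II cadherins (cell adhesion proteins), and had exencephaly, an open cranial neural tube. DKO_Ex embryos are labelled as Cdh8 and Cdh11 double knockouts with exencephaly, and DKO_CD embryos as Cdh6 and Cdh8 double knockouts with a cranial defect, whereas the study's methods call DKO_CD a Cdh8/11 DKO without exencephaly. The alleles are small CRISPR/Cas9 deletions at the exon that holds the translation start, so that transcripts of the targeted genes can still be counted. No step that removes mesenchyme from the dissected brain tissue is described, and no label says that a replicate number marks an embryo, so p-values measure the spread between these libraries.

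In 12 DKO libraries the column heading and the sample record name opposite DKO groups. The headings were followed, and the grouping by record exchanges DKO_Ex and DKO_CD wherever they are named. The values are FPKM, fragments scaled to transcript length and to the mapped fragments of the library, which allow levels to be compared between genes per length. Steps between low values put the depth at 1.94 to 3.24 M fragments per library (median 2.61 M), and counting error alone is therefore wide for low genes. Estimated on the longest transcript, Alx1 in the Mb rested on 1.14 to 13.4 fragments per library and Twist2 in the Fb on 2.20 to 31.9, whereas the median of each other member was at least 39.2 fragments in either tissue. Among the targeted genes, Cdh6 read 1.84, 0.766, 3.74 and 0.572 FPKM in the 4 Fb libraries of TKO_Ex and 0.388, 0.353, 3.10 and 0.345 FPKM in the 4 Mb libraries. The third library of each tissue, labelled TKO_Ex replicate 3, therefore lay within the WT range (2.04 to 3.997 FPKM in the Fb and 1.04 to 3.55 FPKM in the Mb). In the DKO_CD libraries, labelled Cdh6 and Cdh8, Cdh6 read 1.72 to 3.43 FPKM in the Fb and 1.29 to 2.11 FPKM in the Mb, overlapping WT. The tissue labels held: Six3, a transcription factor of the anterior forebrain, was at least 33.1 FPKM in every Fb library and at most 1.57 FPKM in every Mb library, and En1, a midbrain transcription factor, was at most 2.09 FPKM in the Fb and at least 3.57 FPKM in the Mb. The lowest En1 level of the Mb was in WT replicate 5, which also had the lowest summed midbrain markers (30.1 FPKM) and the highest summed forebrain markers (65.4 FPKM) of the 16 Mb libraries.

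Cranial mesenchyme arises from the neural crest and from the cephalic mesoderm, and it surrounds the neural tube while the neural folds elevate and close. Twist1 and Twist2 are basic helix-loop-helix transcription factors of mesenchymal cells, and mouse embryos without Twist1 fail to close the cranial neural tube. Prrx1 and Prrx2 are paired-related homeodomain factors of craniofacial and limb mesenchyme, and Alx1 and Alx4 are homeodomain factors of the frontonasal mesenchyme. Foxc1 is a forkhead factor of the mesenchyme that forms the skull vault and meninges. Pdgfra encodes the receptor for platelet-derived growth factor that many mesenchymal cells carry, and Col1a1 encodes the alpha 1 chain of type I collagen, a fibrillar matrix protein.

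Gene positions were taken from GENCODE M21, on GRCm38. Twist1 is at chr12:33957671-33959829 and Twist2 at chr1:91801461-91848028, both on the plus strand. Prrx1 is at chr1:163245119-163313710 on the minus strand and Prrx2 at chr2:30834972-30881251 on the plus strand. Alx1 is at chr10:102998707-103030215 on the minus strand, Alx4 at chr2:93642384-93681339 on the plus strand and Foxc1 at chr13:31806633-31812476 on the plus strand. Pdgfra is at chr5:75152292-75198215 and Col1a1 at chr11:94936224-94953042, both on the plus strand. A RefSeq promoter, running from 250 bases before to 50 bases after the transcript start, matched 6 of 9 members. The sequences of 4 are shown because Twist1 and not Twist2 passed the test between tissues below, and because Prrx1 and Pdgfra were lower in the Mb with Twist1. Capitals mark matches on either strand. The motif CANNTG is the E-box, which basic helix-loop-helix factors bind. The motif TAATTA is a core site of homeodomain factors. The motif TATAAA marks some core promoters. No base lay in matches of 2 motifs. The windows are chr12:33957421-33957720 for Twist1, chr1:91801211-91801510 for Twist2, chr1:163313601-163313900 for Prrx1 (read on the minus strand) and chr5:75152001-75152300 for Pdgfra.
Twist1 promoter: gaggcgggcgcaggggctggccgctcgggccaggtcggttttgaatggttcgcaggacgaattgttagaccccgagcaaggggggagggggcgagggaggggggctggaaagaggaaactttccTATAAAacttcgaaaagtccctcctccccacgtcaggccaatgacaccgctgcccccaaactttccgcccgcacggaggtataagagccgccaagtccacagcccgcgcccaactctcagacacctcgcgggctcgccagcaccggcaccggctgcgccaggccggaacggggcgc
Twist2 promoter: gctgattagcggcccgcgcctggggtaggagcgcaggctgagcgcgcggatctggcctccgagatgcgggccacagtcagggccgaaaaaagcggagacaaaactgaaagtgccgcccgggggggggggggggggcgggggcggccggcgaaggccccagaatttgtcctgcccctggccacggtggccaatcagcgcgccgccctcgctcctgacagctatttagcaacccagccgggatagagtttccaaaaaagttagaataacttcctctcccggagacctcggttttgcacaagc
Prrx1 promoter: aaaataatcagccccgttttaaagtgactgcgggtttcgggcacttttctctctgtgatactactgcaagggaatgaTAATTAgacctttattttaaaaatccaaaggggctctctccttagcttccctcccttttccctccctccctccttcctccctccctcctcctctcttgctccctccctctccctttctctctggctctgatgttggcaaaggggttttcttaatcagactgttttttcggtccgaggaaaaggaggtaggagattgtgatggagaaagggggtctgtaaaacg
Pdgfra promoter: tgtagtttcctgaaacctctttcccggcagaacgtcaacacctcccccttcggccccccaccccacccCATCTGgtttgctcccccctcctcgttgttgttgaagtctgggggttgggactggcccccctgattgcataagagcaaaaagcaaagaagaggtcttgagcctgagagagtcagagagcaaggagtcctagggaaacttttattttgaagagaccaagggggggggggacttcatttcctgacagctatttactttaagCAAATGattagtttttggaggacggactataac
Twist1 held a TATAAA 126 bases before the start, and Twist2, Prrx2 and Foxc1 held none of these motifs. Prrx1 held a TAATTA 173 bases before the start, and Pdgfra held a CANNTG 182 bases before and another 18 bases after it. Of 32851 RefSeq promoters of the same length, 72.3% held CANNTG, 13.6% TATAAA and 5.29% TAATTA. The GC content of Twist1, Twist2, Prrx2 and Foxc1 was 66.0%, 64.7%, 70.3% and 67.3%, above the median of 52.7% over all promoters, and that of Prrx1 and Pdgfra was 47.7% and 51.0%.

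The comparison of WT Mb with WT Fb asked where the mesenchyme genes were read in normal embryos. In WT, 6 of 9 members were lower in the Mb, 1 was higher and 2 did not pass the test, limma on log2(FPKM + 1) with an adjusted p under 0.05. Of 13344 genes tested, 3.60% were lower and 4.66% higher in the Mb. The median difference of the members was -0.98 on the log2 scale against -0.0033 over all genes tested. In tissue that holds several cell types, the number of mesenchymal cells, their kind and their RNA per cell cannot be told apart. The members did not all move in the same direction, so the median alone does not give the amount of mesenchyme.

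Of the paralogs Twist1 and Twist2 only Twist1 passed the test, and the difference between them was not tested. Twist1 levels ran from 61.9 to 88.4 FPKM (median 79.6) in the 6 WT Fb libraries and from 29.0 to 49.6 FPKM (median 33.5) in the 6 WT Mb libraries. The ranges did not overlap, and Twist1 had the highest WT median of the members in both tissues. On the log2 scale Twist1 was lower in the Mb by a difference of -1.08 (SE 0.15, limma adjusted p = 2.86e-04, n = 6 and 6). Its paralog Twist2 ran from 1.32 to 4.58 FPKM (median 2.77) in the Fb and from 1.39 to 5.94 FPKM (median 2.67) in the Mb, so that both tissues covered almost the same range. The log2 difference of Twist2 was 0.03 (95% interval -0.51 to 0.57, limma adjusted p = 0.965).

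Among the homeodomain factors, Alx1 had the largest difference between tissues. Alx1 ran from 8.38 to 11.7 FPKM (median 9.67) in the WT Fb and from 0.315 to 2.10 FPKM (median 0.680) in the WT Mb, where it was close to the limit of detection. Alx4 ran from 17.0 to 20.3 FPKM (median 18.2) in the Fb and from 4.10 to 6.54 FPKM (median 4.61) in the Mb. Neither gene overlapped between tissues, and the log2 differences were -2.63 for Alx1 (SE 0.19, limma adjusted p = 1.31e-06) and -1.71 for Alx4 (SE 0.11, limma adjusted p = 3.81e-07). Prrx1 ran from 12.004 to 23.4 FPKM (median 15.6) in the Fb and from 3.06 to 6.51 FPKM (median 4.34) in the Mb, again without overlap, with a log2 difference of -1.70 (SE 0.17, limma adjusted p = 2.51e-05). For its paralog Prrx2 the ranges overlapped, at 17.0 to 29.8 FPKM (median 27.2) in the Fb and 8.49 to 25.7 FPKM (median 18.8) in the Mb. The log2 difference of Prrx2 was -0.49 (95% interval -1.001 to 0.029, limma adjusted p = 0.273). The FPKM ratio of Prrx2 to Prrx1 was 0.888 to 2.33 per library in the WT Fb and 2.40 to 5.92 in the WT Mb.

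Foxc1 ran from 15.4 to 18.3 FPKM (median 17.5) in the WT Fb and from 4.64 to 11.03 FPKM (median 8.69) in the WT Mb. The receptor gene Pdgfra ran from 5.53 to 6.73 FPKM (median 6.14) in the Fb and from 2.71 to 5.24 FPKM (median 3.02) in the Mb. Every Mb library lay below every Fb library for both, with log2 differences of -0.98 for Foxc1 (SE 0.16, limma adjusted p = 0.00109) and -0.71 for Pdgfra (SE 0.13, limma adjusted p = 0.00381). Col1a1 went the other way, at 1.83 to 4.39 FPKM (median 2.94) in the Fb and 4.49 to 10.2 FPKM (median 6.45) in the Mb. The ranges were separated by a narrow gap, and the log2 difference was 0.98 (SE 0.19, limma adjusted p = 0.00408). Col1a2, whose product joins that of Col1a1 in type I collagen, was lower in the Mb, at 8.32 to 15.1 FPKM against 23.1 to 39.2 FPKM in the Fb, with a log2 difference of -1.20 (SE 0.16, limma adjusted p = 2.28e-04). The FPKM ratio of Col1a2 to Col1a1 was 6.64 to 12.6 per library in the WT Fb and 1.02 to 2.12 in the WT Mb.

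**Figure D1:**
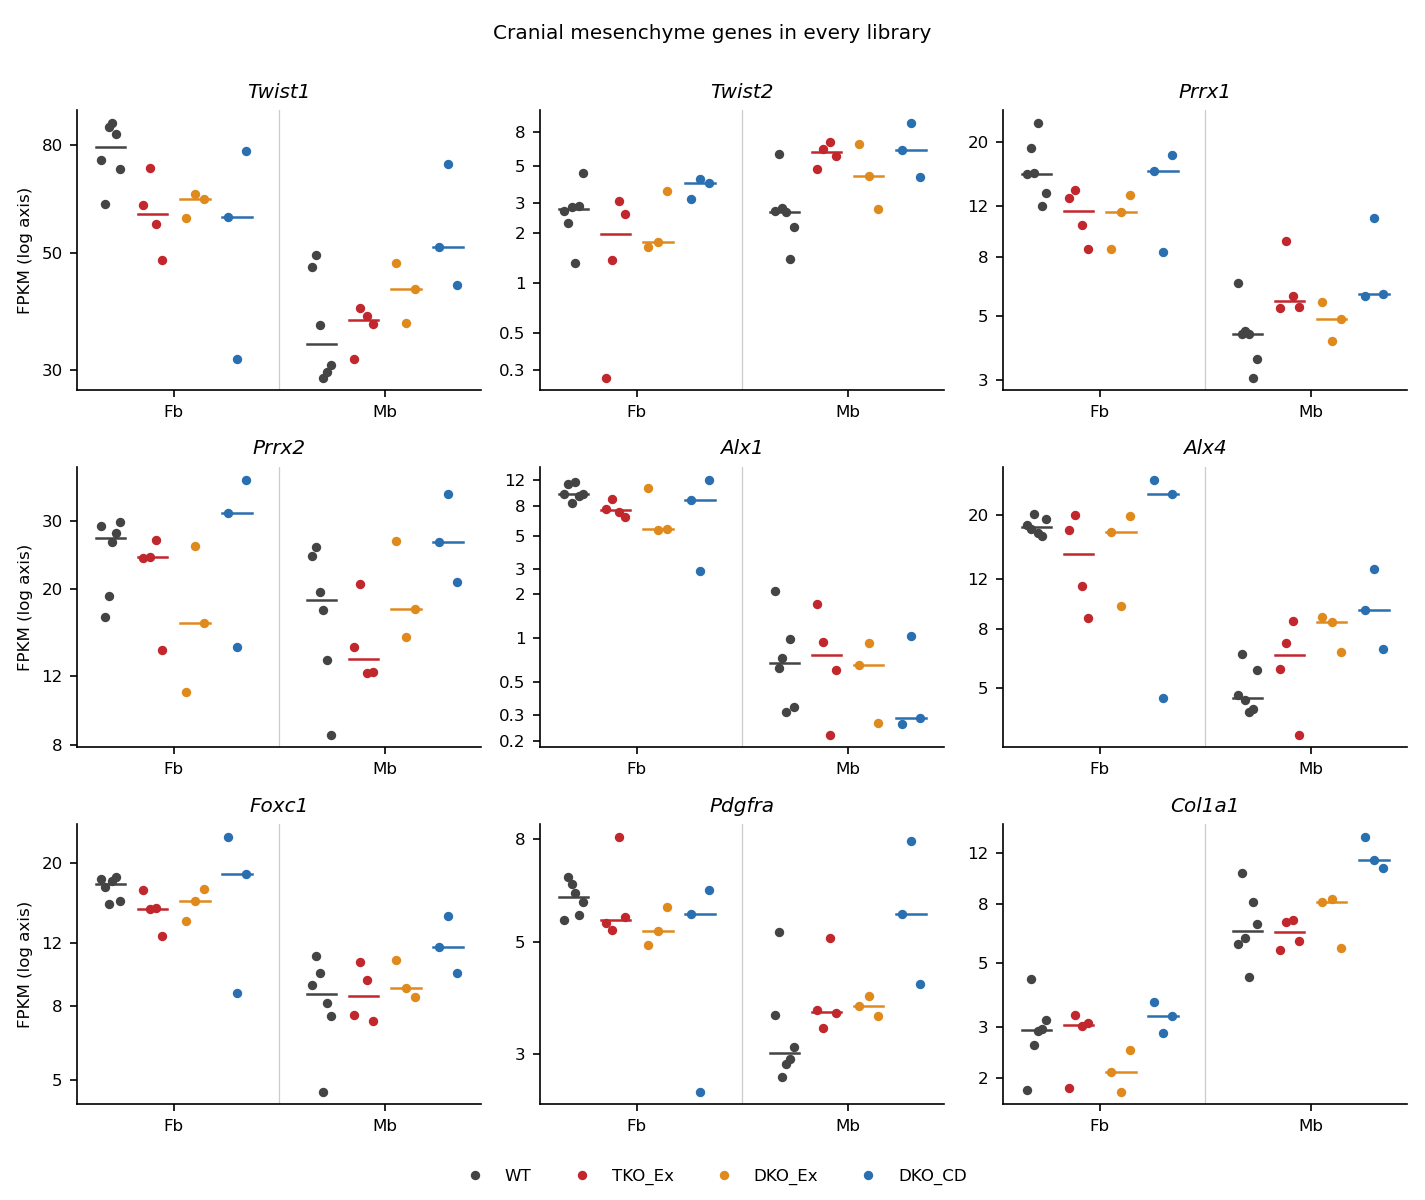
FPKM (log axis) of the 9 cranial mesenchyme genes in the Fb and Mb. Each point is a library, colours mark WT, TKO_Ex, DKO_Ex and DKO_CD, and horizontal lines are group medians. In WT, Twist1 lay at 61.9 to 88.4 FPKM in the Fb and at 29.0 to 49.6 FPKM in the Mb, whereas Col1a1 was higher in the Mb.

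Of the 9 members, 6 had WT ranges that were apart with the Mb lower and 1 with the Mb higher, and over all genes whose mean reached 1 FPKM these shares were 2.23% and 3.36%. The same separation was looked for within each mutant group. In TKO_Ex the ranges of Twist1, Alx1, Alx4, Foxc1 and Pdgfra were apart with the Mb lower, and those of Twist2 and Col1a1 with the Mb higher, against 4.27% and 4.67% of all genes. In DKO_Ex 6 members were apart with the Mb lower, the same 5 and Prrx1, and Col1a1 was apart with the Mb higher, against 7.86% and 12.6% of all genes. In DKO_CD Alx1 alone was apart with the Mb lower, and Twist2 and Col1a1 were apart with the Mb higher, against 8.21% and 7.34% of all genes. In DKO_CD replicates 1 and 3 alone, Twist1, Prrx1, Prrx2, Alx4 and Foxc1 were also lower in the Mb without overlap. For Pdgfra the nearest values were almost equal, at 5.693 FPKM in the Fb and 5.685 FPKM in the Mb of replicate 1. No share of all genes was computed without replicate 2, so this separation is not a result about the members. Groups of 3 and 4 libraries separate more easily than groups of 6, as the shares over all genes show.

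**Figure D2:**
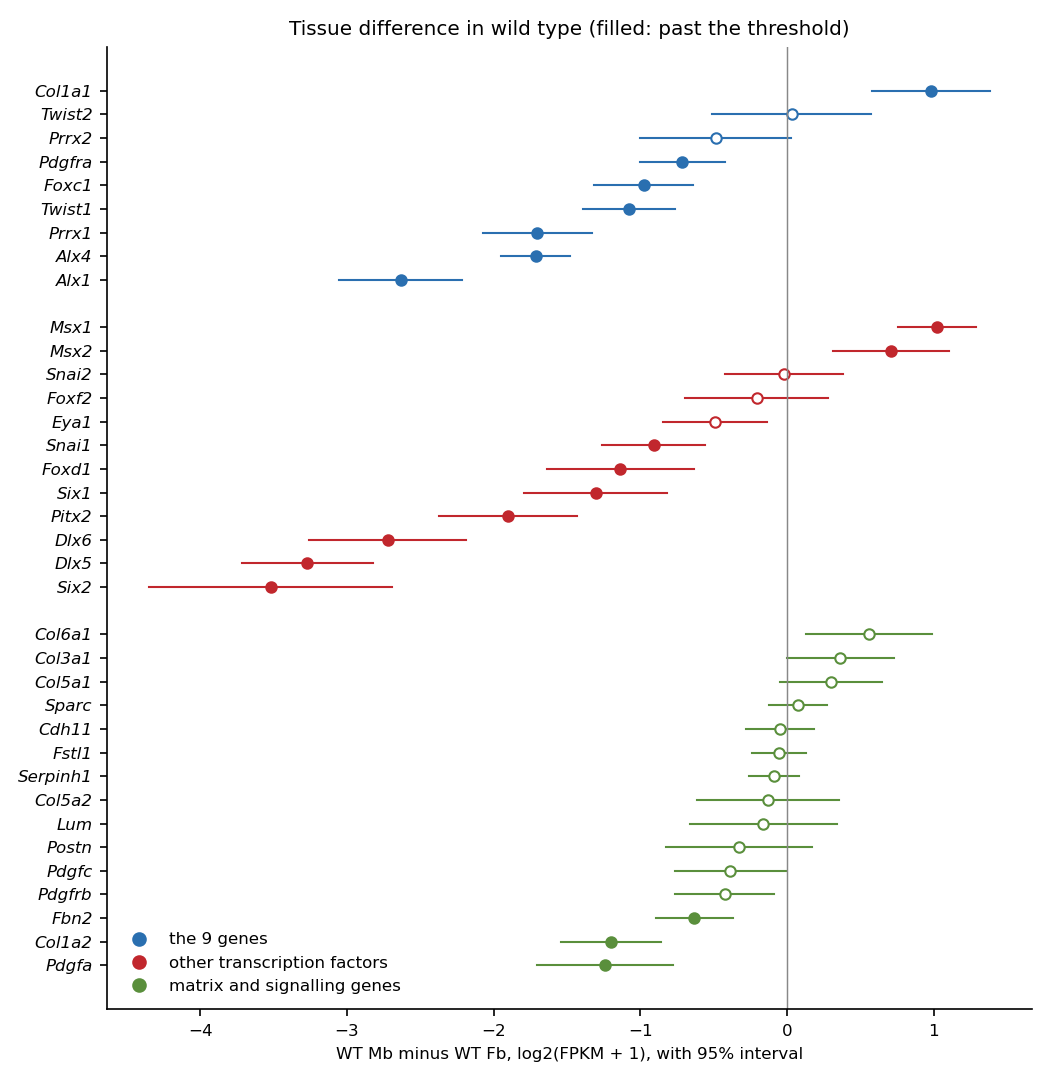
Difference between WT Mb and WT Fb on the log2(FPKM + 1) scale for the 9 cranial mesenchyme genes (blue), the other mesenchyme transcription factors that are reported here (red) and matrix and signalling genes (green), as points with 95% intervals from limma (n = 6 and 6), filled where the threshold was passed. Values below 0 are lower in the Mb, and among the 9 genes Alx1 lay lowest at -2.63 and Col1a1 highest at 0.98, while the intervals of Twist2 and Prrx2 crossed 0.

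The other genes of mesenchyme followed the members in part. Of 21 other mesenchyme transcription factors 13 were tested, 8 were lower in the WT Mb and 2 higher, with a median log2 difference of -1.14. Six2, a factor of mesenchymal progenitors, had a log2 difference of -3.52 (SE 0.38, limma adjusted p = 4.64e-05), and Dlx5 and Dlx6, homeodomain factors of branchial arch crest and anterior ectoderm, had -3.27 and -2.72. The exceptions were Msx1, at 16.8 to 26.9 FPKM in the Fb and 36.0 to 52.5 FPKM in the Mb (log2 difference 1.03, SE 0.12, limma adjusted p = 1.06e-04), and Msx2 (0.71, limma adjusted p = 0.0289). Both are also expressed in the dorsal neural tube. Of 17 matrix and signalling genes 15 were tested, 3 were lower (Pdgfa -1.24, Col1a2 -1.20 and Fbn2 -0.63) and 0 higher by limma, while 6 had an unadjusted p under 0.05, and their median was -0.13.

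Markers of other cell types moved with the tissue as well. Of 8 migrating neural crest genes tested 3 were lower in the WT Mb, namely Sox9 (-1.51), Erbb3 (-1.26) and Tfap2a (-0.93), and their summed level was 50.3 to 70.3 FPKM in the Fb and 34.3 to 52.2 FPKM in the Mb. Of the defining crest markers, Sox10 was present in every WT library, and Foxd3 was at 0 in 1 of them, Fb replicate 2. Of 6 surface ectoderm genes tested 5 were lower in the Mb, with Epcam at -2.05, and the summed level was 63.2 to 106 FPKM in the Fb and 28.3 to 43.9 FPKM in the Mb. Of 8 endothelial genes and 7 genes of primitive red cells, 0 passed the limma test and 0 had an unadjusted p under 0.05. Summed endothelial levels overlapped between tissues, at 50.1 to 66.3 FPKM in the Fb and 44.5 to 72.7 FPKM in the Mb. Of 8 neuroepithelial genes 4 were higher in the Mb (Fabp7 2.23, Hes5 1.87, Nes 0.77 and Msi1 0.66), and the summed level was 363 to 510 FPKM in the Fb and 632 to 801 FPKM in the Mb. The 6 forebrain genes were all lower in the Mb, and 4 of 6 midbrain genes were higher. The part of these cell types in the difference of the mesenchyme genes was not tested.

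The comparisons of each mutant group with WT asked whether the mesenchyme genes differed where the cadherins were lost. None of the members passed the test in any of the 6 comparisons within a tissue. All comparisons in a tissue share the same 6 WT libraries, so their values are given side by side and not as independent results.

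In the Mb no member's difference from WT passed the threshold in any mutant group. In TKO_Ex 0 of 8 members passed the limma test (0.0898% of all genes did), 2 had an unadjusted p under 0.05 against 8.38% of all genes, 6 lay above 0 (Twist1, at 0.00, fell below 0 after median-of-ratios scaling), and their median log2 difference was 0.13 against 0.02 over all genes. In DKO_Ex 0 of 8 passed (0.0903% of all genes), 1 had an unadjusted p under 0.05 against 5.46% of all genes, 8 lay above 0 and the median was 0.17 against 0.03. In DKO_CD 0 of 8 passed (0.0375% of all genes), 6 had an unadjusted p under 0.05 against 6.69% of all genes, 8 lay above 0 and the median was 0.65 against 0.02. Over all genes 53.4% lay above 0 in TKO_Ex, 55.7% in DKO_Ex and 53.4% in DKO_CD. Members that vary together across libraries are not independent, and these counts of direction were not tested. Alx1 was left out of the Mb comparisons because its mean was under 1 FPKM. It read 1.72, 0.940, 0.219 and 0.609 FPKM in TKO_Ex, 0.656, 0.922 and 0.263 in DKO_Ex and 0.259, 1.04 and 0.285 in DKO_CD, all within or below the WT range of 0.315 to 2.10 FPKM.

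Twist2 had the largest log2 difference of the 8 members tested in the TKO_Ex Mb and in the DKO_CD Mb. Its 4 TKO_Ex Mb libraries read 4.81, 6.35, 6.99 and 5.80 FPKM, its 3 DKO_Ex Mb libraries 6.79, 4.40 and 2.78 FPKM and its 3 DKO_CD Mb libraries 6.28, 9.14 and 4.34 FPKM. Against WT (1.39 to 5.94 FPKM), 5 of the 6 WT libraries lay below every TKO_Ex and DKO_CD library, and WT replicate 2 overlapped them. The log2 difference was 0.90 in TKO_Ex (SE 0.25, limma adjusted p = 0.318), 0.54 in DKO_Ex (SE 0.33, limma adjusted p = 0.904) and 0.97 in DKO_CD (SE 0.32, limma adjusted p = 0.584). Twist1 read 31.5, 39.2, 38.0 and 36.7 FPKM in the TKO_Ex Mb, all within the WT range, and the FPKM ratio of Twist1 to Twist2 was 5.43 to 6.56 per library there against 8.35 to 21.4 in the WT Mb. In the DKO_Ex Mb Twist1 read 47.8, 36.8 and 42.7 FPKM. In the DKO_CD Mb it read 51.2, 73.7 and 43.4 FPKM, with a log2 difference of 0.58 (95% interval 0.10 to 1.07, limma adjusted p = 0.686).

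Prrx1 read 5.36, 9.09, 5.87 and 5.38 FPKM in the TKO_Ex Mb, 5.58, 4.11 and 4.89 FPKM in the DKO_Ex Mb and 5.89, 10.95 and 5.95 FPKM in the DKO_CD Mb. These ranges all overlapped WT, and the log2 differences were 0.47, 0.15 and 0.66. Prrx2 read 14.2, 20.6, 12.2 and 12.3 FPKM in TKO_Ex, 26.6, 15.1 and 17.8 FPKM in DKO_Ex and 26.5, 35.1 and 20.9 FPKM in DKO_CD. Here the direction differed, with log2 differences of -0.23, 0.16 and 0.62 and overlap with WT in each group.

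Alx4 was the member whose Mb ranges were apart from WT in both DKO groups. It read 8.80, 8.49 and 6.68 FPKM in the DKO_Ex Mb and 9.32, 13.0 and 6.82 FPKM in the DKO_CD Mb, all above the WT maximum of 6.54 FPKM. The log2 difference was 0.60 in DKO_Ex (SE 0.17, limma adjusted p = 0.610) and 0.82 in DKO_CD (SE 0.20, limma adjusted p = 0.488). In the TKO_Ex Mb Alx4 read 5.79, 7.19, 8.57 and 3.42 FPKM, with a log2 difference of 0.24 (SE 0.21, limma adjusted p = 0.829). Foxc1 read 7.56, 10.6, 9.499 and 7.28 FPKM in TKO_Ex, 10.8, 8.98 and 8.48 FPKM in DKO_Ex and 11.7, 14.2 and 9.93 FPKM in DKO_CD, overlapping WT in each group.

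Pdgfra read 3.66, 3.39, 5.09 and 3.62 FPKM in the TKO_Ex Mb, 3.74, 3.91 and 3.57 FPKM in the DKO_Ex Mb and 5.69, 7.94 and 4.12 FPKM in the DKO_CD Mb. Only the DKO_CD libraries reached above the WT maximum of 5.24 FPKM, in 2 of 3 libraries. Col1a1 read 13.7, 11.3 and 10.6 FPKM in the DKO_CD Mb, all above the WT maximum of 10.2 FPKM, with a log2 difference of 0.73 (SE 0.21, limma adjusted p = 0.512). In TKO_Ex it read 5.56, 6.91, 7.02 and 5.95 FPKM and in DKO_Ex 8.109, 8.32 and 5.62 FPKM, within the WT range. Members with ranges apart above WT in the Mb thus numbered 2 in DKO_CD, 1 in DKO_Ex and 0 in TKO_Ex, against 2.24%, 2.01% and 1.21% of all genes.

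**Figure D3:**
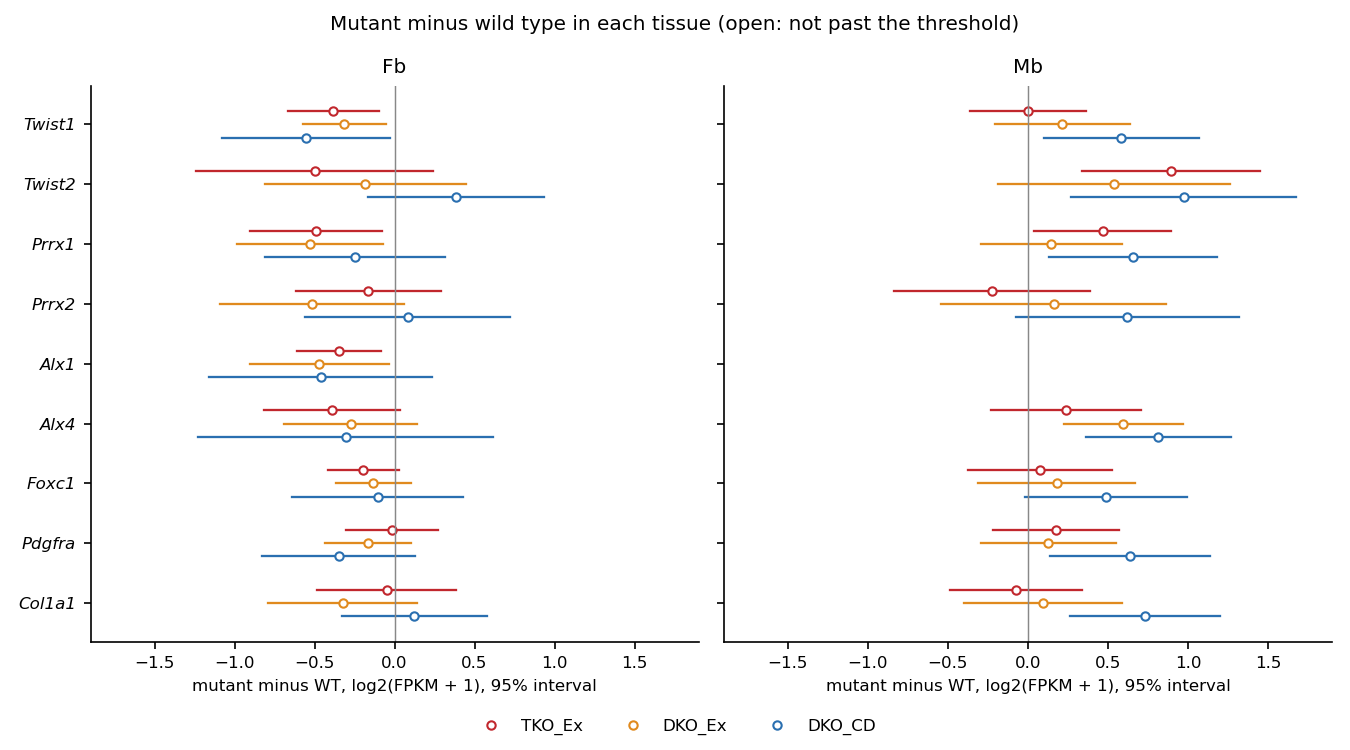
Difference of each mutant group from WT on the log2(FPKM + 1) scale for the cranial mesenchyme genes in the Fb (left) and Mb (right), with 95% intervals from limma. Open points did not pass the threshold, and Alx1 was not tested in the Mb. In the Mb the 8 DKO_CD values lay above 0, from 0.49 to 0.97, against 53.4% of all genes above 0.

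In the Fb the members lay below WT in the exencephalic groups, again without passing the threshold. In TKO_Ex 0 of 9 members passed the limma test (0.0603% of all genes did), 3 had an unadjusted p under 0.05 against 8.66% of all genes, 9 lay below 0 and the median log2 difference was -0.35 against 0.02. In DKO_Ex 0 of 9 passed (0.0759% of all genes), 3 had an unadjusted p under 0.05 against 7.01% of all genes, 9 lay below 0 and the median was -0.32 against -0.01. In DKO_CD 0 of 9 passed (0.0378% of all genes), 1 had an unadjusted p under 0.05 against 8.44% of all genes, 6 lay below 0 and the median was -0.25 against 0.04. Over all genes 45.8% lay below 0 in TKO_Ex, 53.0% in DKO_Ex and 41.9% in DKO_CD, and these counts of direction were not tested. No member had Fb ranges apart below WT in any group, against 0.814% of all genes in TKO_Ex, 2.25% in DKO_Ex and 1.30% in DKO_CD.

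Twist1 read 61.7, 72.5, 56.7 and 48.4 FPKM in the Fb of TKO_Ex, 58.2, 64.7 and 63.4 FPKM in the DKO_Ex Fb and 58.5, 31.4 and 78.1 FPKM in the DKO_CD Fb, overlapping the WT range of 61.9 to 88.4 FPKM in each group. The log2 differences of Twist1 were -0.38 (limma adjusted p = 0.432), -0.32 (limma adjusted p = 0.616) and -0.55 (limma adjusted p = 0.564), respectively. Twist2 read 0.269, 1.37, 3.10 and 2.57 FPKM in TKO_Ex, 1.64, 1.75 and 3.57 FPKM in DKO_Ex and 3.18, 4.20 and 3.97 FPKM in DKO_CD. At this depth its lowest value stands for about 2.20 fragments, and the groups overlapped.

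Prrx1 read 12.8, 13.7, 10.4 and 8.57 FPKM in the Fb of TKO_Ex, 8.56, 11.5 and 13.1 FPKM in the DKO_Ex Fb and 15.9, 8.33 and 18.0 FPKM in the DKO_CD Fb. Its log2 differences were -0.49 (limma adjusted p = 0.493), -0.53 (limma adjusted p = 0.618) and -0.25 (limma adjusted p = 0.812). Prrx2 read 24.1, 24.2, 26.8 and 14.0 FPKM in TKO_Ex, 10.9, 25.9 and 16.4 FPKM in DKO_Ex and 31.4, 14.2 and 38.2 FPKM in DKO_CD. The DKO_CD libraries lay on both sides of the WT range of 17.0 to 29.8 FPKM, and the other groups overlapped it.

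Alx1 read 7.66, 8.93, 7.30 and 6.76 FPKM in the Fb of TKO_Ex, 10.6, 5.501 and 5.58 FPKM in the DKO_Ex Fb and 8.86, 2.90 and 12.1 FPKM in the DKO_CD Fb, against 8.38 to 11.7 FPKM in WT. Alx4 read 17.9, 20.1, 11.4 and 8.74 FPKM in TKO_Ex, 17.5, 9.64 and 19.9 FPKM in DKO_Ex and 26.7, 4.62 and 23.8 FPKM in DKO_CD. In WT the 6 Alx4 values lay within 17.0 to 20.3 FPKM, and the SD was 1.23 FPKM in WT, 5.33 in TKO_Ex, 5.36 in DKO_Ex and 11.99 in DKO_CD, a difference in spread that was not tested. Foxc1 read 16.8, 14.9, 15.0 and 12.6 FPKM in TKO_Ex, 13.8, 15.7 and 16.9 FPKM in DKO_Ex and 23.7, 8.73 and 18.6 FPKM in DKO_CD, where the libraries again lay on both sides of the WT range of 15.4 to 18.3 FPKM.

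Pdgfra read 5.47, 5.29, 8.08 and 5.62 FPKM in the Fb of TKO_Ex, 4.93, 5.27 and 5.86 FPKM in the DKO_Ex Fb and 5.69, 2.53 and 6.34 FPKM in the DKO_CD Fb. Col1a1 read 1.86, 3.32, 3.03 and 3.09 FPKM in TKO_Ex, 2.10, 1.80 and 2.51 FPKM in DKO_Ex and 3.68, 2.87 and 3.28 FPKM in DKO_CD. Both overlapped WT in every group. The library labelled TKO_Ex replicate 3, with Cdh6 in the WT range, had the highest Pdgfra level of its group in both tissues.

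Whether a mutant effect differed between Mb and Fb was tested with an interaction term. By limma 0 of 9 members passed in TKO_Ex, in DKO_Ex or in DKO_CD, against 0.0149%, 0% and 0.00746% of all genes, with lowest adjusted p of 0.653, 0.9996 and 0.979. At an unadjusted p under 0.05 there were 3, 3 and 4 members, against 6.504%, 3.88% and 4.83% of all genes. The effect was higher in the Mb than in the Fb for 7, 9 and 9 members, against 49.3%, 57.2% and 46.5% of all genes. The median interaction was 0.37, 0.53 and 0.61 on the log2 scale, against -0.004, 0.039 and -0.023 over all genes. Prrx2 (-0.06) and Col1a1 (-0.03) lay below 0 in TKO_Ex. Prrx1 had an interaction of 0.96 in TKO_Ex (95% interval 0.38 to 1.53), 0.67 in DKO_Ex (0.07 to 1.28) and 0.90 in DKO_CD (0.15 to 1.66). For Twist2 in TKO_Ex it was 1.40 (95% interval 0.49 to 2.30), for Alx4 in DKO_Ex 0.87 (0.34 to 1.40) and for Twist1 in DKO_CD 1.14 (0.42 to 1.86). For Twist1 the Mb minus Fb difference of log2 means was -1.08 in WT, -0.69 in TKO_Ex, -0.54 in DKO_Ex and 0.06 in DKO_CD. In DKO_CD replicate 2 Twist1 read 31.4 FPKM in the Fb and 73.7 FPKM in the Mb. It read 58.5 and 78.1 FPKM in the Fb and 51.2 and 43.4 FPKM in the Mb of replicates 1 and 3. Without the Fb library of replicate 2 the DKO_CD median interaction was 0.535, with 8 of 9 members above 0. Without its Mb library the median was 0.633, again with 8 of 9 above 0. A fit without both libraries was not made.

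Replicate 2 of DKO_CD stood apart in both tissues. In the Fb it was the lowest of 16 libraries for 6 members, and its 9 members summed to 79.8 FPKM, against 178 and 202 FPKM in the other DKO_CD Fb libraries and 158 to 196 FPKM in WT. In the same library the surface ectoderm genes summed to 222 FPKM against 63.2 to 106 FPKM in WT, with Epcam at 46.5 FPKM against 10.1 to 20.002 FPKM. Its endothelial genes summed to 31.3 FPKM against 50.1 to 66.3 FPKM in WT, and its forebrain genes to 158 FPKM against 196 to 267 FPKM. The TKO_Ex Fb library with the lowest sum of members, replicate 4 at 110 FPKM, also had high surface ectoderm (239 FPKM) and low endothelial sums (32.6 FPKM). In the Mb, DKO_CD replicate 2 was the highest of 16 libraries for 7 members, with a sum of 176 FPKM against 68.4 to 119 FPKM in WT, and its surface ectoderm genes summed to 86.6 FPKM against 28.3 to 43.9 FPKM and its crest genes to 69.7 FPKM against 34.3 to 52.2 FPKM. High surface ectoderm sums were not limited to these libraries. In the Mb, DKO_CD replicate 3 had 67.7 FPKM, with members at 106 FPKM. In the Fb, TKO_Ex replicate 3 had 180 FPKM and DKO_Ex replicate 2 had 172 FPKM, with members at 142 FPKM in each. The part of these cell types in the members' values was not tested. Without DKO_CD replicate 2 the median log2 difference of the members was 0.435 in the Mb, with 8 of 8 above 0, and 0.19 in the Fb, with 7 of 9 above 0, so that the Fb direction turned when this library was left out. Without TKO_Ex replicate 4 the Fb median in TKO_Ex was -0.19, with 7 of 9 below 0. Without TKO_Ex replicate 3 the Mb median in TKO_Ex was 0.05, with 5 of 8 above 0.

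The members varied together across libraries to a different degree in each tissue. Over the 16 Fb libraries the median Pearson r of the 36 pairs of members on log2(FPKM + 1) was 0.47 (range -0.18 to 0.84, 29 above 0, median Spearman rho 0.39). Over the 16 Mb libraries the median r was 0.60 (range -0.18 to 0.83, 32 above 0, median rho 0.60). These libraries share dissection, depth and genotype groups, and no test was made. In the 6 WT Fb libraries alone the median r was -0.13 with 14 of 36 pairs above 0, whereas in the 6 WT Mb libraries it was 0.53 with 32 above 0. Among the 10 mutant libraries it was 0.51 in the Fb and 0.63 in the Mb, and without DKO_CD replicate 2 it was 0.35 and 0.34.

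A score was taken as the mean of the members' standardised log2 values in each tissue, over 9 members in the Fb and 8 in the Mb, where Alx1 was left out. WT Fb libraries scored 0.22 to 0.57, TKO_Ex -0.70 to 0.09, DKO_Ex -0.65 to -0.07, and the DKO_CD libraries 0.70, -1.76 and 0.93. Every WT Fb library therefore scored above every TKO_Ex and DKO_Ex Fb library, while the DKO_CD libraries lay on both sides. The gap was narrow, from 0.09 in TKO_Ex to 0.22 in WT, and each of the 9 members alone overlapped WT in both groups. This separation of the score was not tested and was not set against scores of other genes. In the Mb the WT libraries scored -1.18 to 0.59, TKO_Ex -0.55 to 0.36, DKO_Ex -0.29 to 0.56 and DKO_CD 1.06, 2.001 and 0.36. Replicate 2 had the highest WT Mb score, and the others scored between -1.18 and -0.10.

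**Figure D4:**
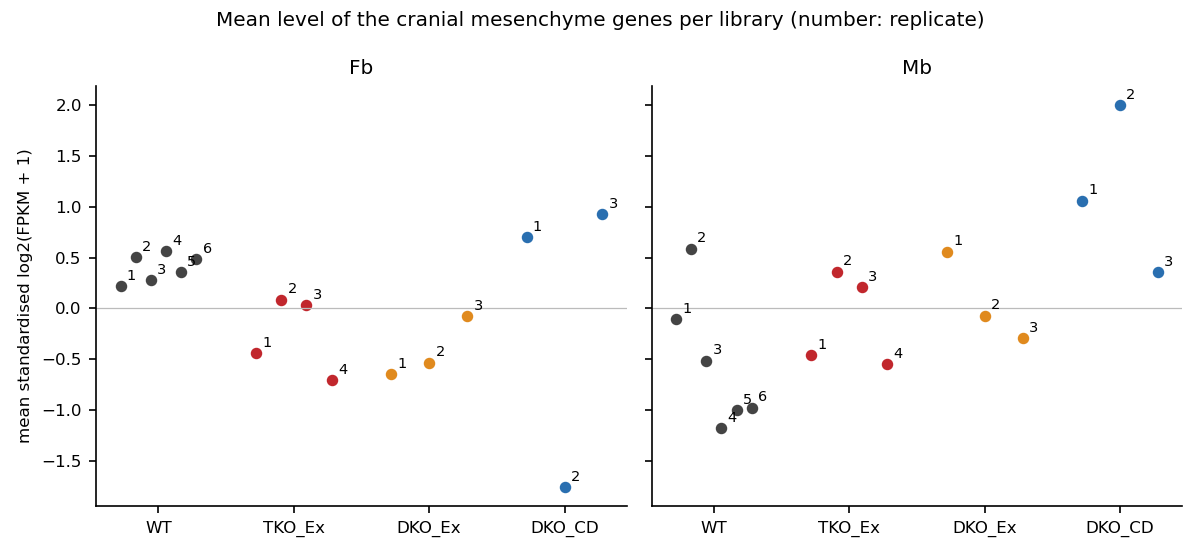
Score of the cranial mesenchyme genes, the mean of their standardised log2(FPKM + 1) values within a tissue (9 members in the Fb, 8 without Alx1 in the Mb), for each library in the Fb and the Mb. Each point is a library. In the Fb DKO_CD replicate 2 lay lowest at -1.76, and in the Mb DKO_CD replicate 2 lay highest at 2.001.

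The genes whose level followed the score most closely were ranked by Pearson r among 13222 genes in the Fb and 13312 in the Mb, as a description. In the Fb they were Ednra (0.91), Cdh11 (0.90), Nid1 (0.88), Aplnr (0.85), S1pr3 (0.85), Pfn1 (0.85), Tril (0.84), Arhgap31 (0.83), Pcdh1 (0.82) and Snrnp70 (0.81). Ednra encodes the endothelin receptor of crest-derived mesenchyme, and Nid1 encodes nidogen, a basement membrane protein. Cdh11, a cadherin of mesenchymal cells and itself a targeted gene, lay second, and its r was 0.82 without the 2 libraries farthest from the median score and 0.80 in the 6 WT libraries. In those WT libraries the members themselves had a median pair r of -0.13, so the score there is not a level that they share. Pfn1, Tril, Arhgap31 and Pcdh1 had r between -0.16 and 0.22 in the same WT libraries. In the Mb the list was Pth1r (0.87), Nptxr (0.86), Snai1 (0.86), Cnn2 (0.85), Tpm1 (0.85), Cd248 (0.84), Smim10l1 (0.84), Kitl (0.84), Col26a1 (0.84) and S1pr3 (0.84). Snai1 is a transcription factor of epithelial to mesenchymal transition, and Cd248 encodes a surface protein of mesenchymal and perivascular cells. Cdh11 in the Mb had an r of 0.23 and ranked 4000. Its level there was 14.5 to 16.6 FPKM in the 4 TKO_Ex libraries and 17.9 to 28.7 FPKM in WT. The ranges were apart, and the limma adjusted p was 0.356. In the Fb Cdh11 read 12.7 to 25.3 FPKM over the 16 libraries, with the lowest level in DKO_CD replicate 2.

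**Figure D5:**
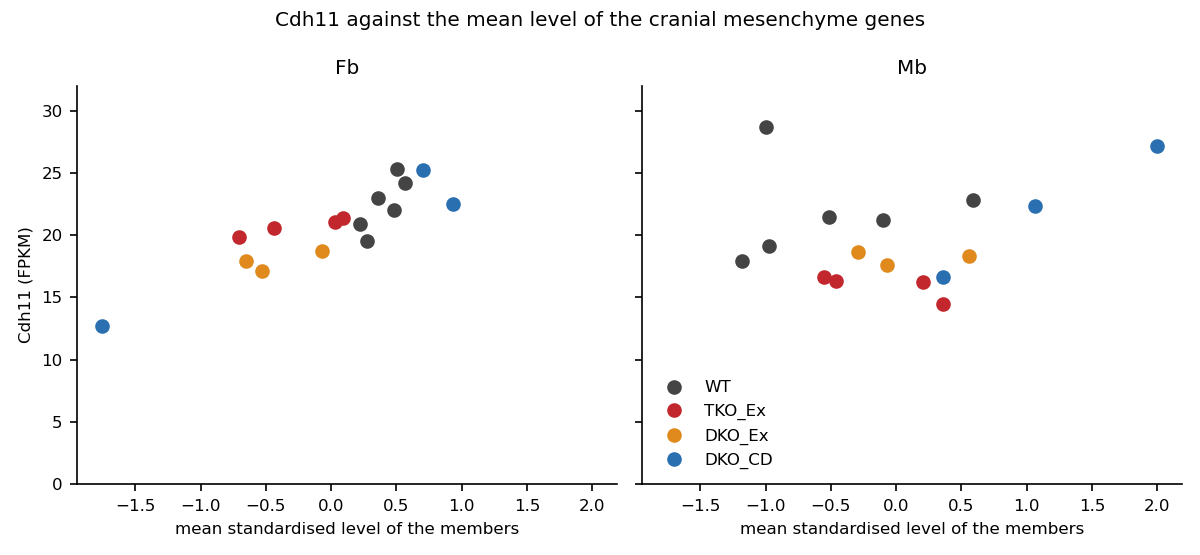
Cdh11 level (FPKM) against the score of the cranial mesenchyme genes, each point a library of the Fb (left) or Mb (right), coloured by group. Pearson r over 16 libraries was 0.90 in the Fb and 0.23 in the Mb.

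The summed levels of other marker lists were set against the score in the same way. The matrix and signalling list followed it in both tissues (r 0.84 in the Fb and 0.85 in the Mb), and the other mesenchyme transcription factors did so more in the Mb (0.89) than in the Fb (0.42). For endothelium r was 0.76 in the Fb and 0.32 in the Mb, and without the 2 farthest libraries the Fb value was 0.50. Surface ectoderm had an r of -0.75 in the Fb and 0.54 in the Mb, opposite in sign between tissues. Crest genes had 0.41 and 0.66, of which -0.11 and 0.39 were left without the 2 farthest libraries. Primitive red cells had 0.03 and -0.25, neuroepithelium -0.23 and -0.05, forebrain genes 0.49 and -0.07 and midbrain genes -0.58 and 0.05. Without the 2 farthest libraries the forebrain value in the Fb turned to -0.25, the midbrain values were -0.31 and 0.38, and red cells had -0.57 in the Mb. Against WT, 0 genes of these lists passed the limma test in any mutant group. In the Mb an unadjusted p under 0.05 was found for 3 of 69 genes in TKO_Ex, 3 of 69 in DKO_Ex and 11 of 70 in DKO_CD. The shares over all genes were 8.38%, 5.46% and 6.69%. In the Fb the counts were 17 of 76 in TKO_Ex, 12 of 75 in DKO_Ex and 9 of 76 in DKO_CD. There the shares over all genes were 8.66%, 7.01% and 8.44%. The matrix and signalling list includes Cdh11, a targeted gene.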

How the data were processed

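RNA of dissected Fb and Mb tissue from E9.5 embryos was extracted and made into directional libraries by the authors, who aligned the reads to GRCm38 (mm10) with TopHat2 and computed values with Cufflinks. The deposited values are FPKM per gene, already normalized to transcript length and mapped fragments. The submitters' processing notes also name HTSeq and DESeq2, whose counts and tests were not used here, and tool versions are not given in the sources used here. The FPKM of 65 repeated identifiers were summed, and 48218 of 48576 identifiers were found in GENCODE M21.

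Groups followed the sample labels and, for the 12 DKO libraries whose heading and record disagree, the headings. Whole-fragment steps among low FPKM of 771 genes with a single transcript (4000 bp or longer) gave the depth, and 84.3% to 94.2% of low values per library were whole within 0.1 fragment.

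Genes whose mean in the fitted libraries reached 1 FPKM were tested on log2(FPKM + 1) with limma 3.58.1 in R 4.3.3 (lmFit, eBayes with a mean-variance trend, two-sided). The threshold was a Benjamini-Hochberg adjusted p under 0.05 over all genes tested, and a difference on this scale understates the change of low genes. The fit was tested on simulated data in which 200 genes changed by log2 differences of at least 1 in either direction. The spread was set in advance and not estimated from these libraries. Within a tissue the members differed from WT by less than 1 in every mutant group, so recovery of such differences was not measured. Recovery was 92.6% in the WT design of 13195 genes, 91.3% for TKO_Ex in the Mb (13249 genes) and 69.7% for the DKO_CD interaction (13302 genes).

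The genes named were the 9 members, the targeted cadherins, list genes past the threshold (at most 6 a list), defining markers and the 10 genes most like the member score in each tissue. Col1a2 and Msx1 fall under the list rule, and the other list genes are given as counts. Some list genes enter the counts and sums and are not reported here by name. The members and lists were chosen with earlier results of these data known. Alternatives were other pseudocounts, filters and scaling, no trend, all groups in one fit, the grouping by record, the replicate block and leaving out libraries. The co-variation alternatives and the values without DKO_CD replicate 2 or TKO_Ex replicates 3 or 4 were singled out after seeing the data. Promoters are those of RefSeq on GRCm38.p6. Tables and figures were made with Python 3.11.15, pandas 2.3.3, numpy 2.4.6 and matplotlib 3.10.9.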

Additional observations from a re-analysis of the deposited data

Results flagged for a closer look

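Among 40 groups of 4 to 6 libraries, 5 held a library far from the others, and chance flags about 1 in 20 such groups. Pdgfra read 8.081 FPKM in the library labelled TKO_Ex replicate 3 of the Fb, where the other 3 TKO_Ex libraries read 5.29 to 5.62 FPKM. In the Mb the library labelled TKO_Ex replicate 3 read 5.08579 FPKM for Pdgfra, against 3.39 to 3.66 FPKM in the others, and this replicate also had Cdh6 in the WT range in both tissues. Pdgfra in WT Mb replicate 2 was 5.24204 FPKM while the remaining WT Mb libraries read 2.71 to 3.59 FPKM. Twist2 in the same library was 5.94344 FPKM against 1.39 to 2.80 FPKM. Prrx1 in TKO_Ex Mb replicate 2 was 9.08938 FPKM against 5.36 to 5.87 FPKM. The cause of these values was not tested.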

How the results depend on the processing

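The 7 WT tissue differences past the threshold kept their direction and their side of it in all 146 combinations of gene and setting (highest adjusted p 0.0244), and no member passed in any comparison with a mutant under any setting run. Over those settings the lowest adjusted p of a member was 0.103 for the TKO_Ex Mb. The count of all genes past the threshold moved more, from 780 to 1317 in the WT comparison (1102 as reported), 0 to 52 in the TKO_Ex Mb (12), 0 to 32 in the TKO_Ex Fb (8), 1 to 17 in the DKO_Ex Mb (12), 2 to 14 in the DKO_Ex Fb (10), 1 to 12 in the DKO_CD Mb (5) and 2 to 15 in the DKO_CD Fb (5), and for the interactions 0 to 5 in TKO_Ex (2), 0 to 1 in DKO_Ex (0) and 0 to 5 in DKO_CD (1). Same-numbered Fb and Mb libraries of a group correlated at 0.008 to 0.140, with 4 of 16 over 0.1 and 14 of 16 closest to their own number, and the labels do not say that a number marks an embryo, so the pairing was not used. With the replicate block 7 members passed in WT and 0 elsewhere. In the comparisons within a tissue the block matched each mutant library to the WT library with its number, although these come from different matings. WT libraries whose number no library of the mutant group shares then added nothing to the difference. Under this matching the sign turned in the Mb for Twist1 in TKO_Ex (-0.1270). In the DKO_Ex Mb it turned for Twist1 (-0.0585), Prrx1 (-0.0453), Prrx2 (-0.2515) and Foxc1 (-0.0865). These turns are therefore not a test of allowing for the embryo.

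Twist1 in the TKO_Ex Mb also turned with a pseudocount of 5 (-0.0014) and with median-of-ratios scaling (-0.0159), and the Alx1 interaction of DKO_CD turned with a pseudocount of 0.1 (-0.0271). Scaling moved the median of all genes by at most 0.00836. With the grouping by record, which exchanges the DKO groups, the Fb difference became 0.3850 for Twist2, 0.0809 for Prrx2 and 0.1242 for Col1a1 in DKO_Ex, and -0.1820, -0.5154 and -0.3232 in DKO_CD. Leaving out a replicate turned the sign of these log2 differences, which ranged from -0.1458 to 0.1792 for Twist2 in WT, in the TKO_Ex Mb from -0.0611 to 0.0900 for Twist1, -0.0650 to 0.1538 for Foxc1 and -0.1741 to 0.0321 for Col1a1, and in the TKO_Ex Fb from -0.2618 to 0.0346 for Prrx2, -0.1390 to 0.0379 for Pdgfra and -0.1428 to 0.0847 for Col1a1. In the DKO_Ex Mb the ranges were -0.0601 to 0.3281 for Prrx2 and -0.0038 to 0.2540 for Col1a1, and in the DKO_Ex Fb -0.4656 to 0.0205 for Alx4. In the DKO_CD Fb they were -0.4480 to 0.0660 for Prrx1, -0.1919 to 0.4895 for Prrx2, -0.8228 to 0.0524 for Alx1, -0.7161 to 0.4343 for Alx4 and -0.3847 to 0.2858 for Foxc1. For the interactions they were -0.2601 to 0.1127 for Prrx2 and -0.1601 to 0.0815 for Col1a1 in TKO_Ex and -0.3018 to 0.5733 for Alx1 in DKO_CD. None of these differences was past the threshold, and the cause of each turn was not tested. Low depth limits Alx1 in the Mb and Twist2 in the Fb most.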
